A study of Homo sapiens with 6 samples.

Results

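The genes described here encode the nuclear subunits of respiratory complexes II, III, IV and V, together with cytochrome c. They were chosen by function and matched by symbol to the deposited counts, and all 42 were found among the 38557 listed genes. There were 4 members of complex II, 9 of complex III, 13 of complex IV and 15 of complex V, and 1 gene for cytochrome c. Expression had been measured by RNA sequencing in cardiomyocytes differentiated from the stem cell line WTC11, an established human line of induced pluripotent cells labelled as wild type. The cells stood in RPMI plus B27, a basal medium with a serum-free supplement, or in DMEM plus fatty acids, with 3 biological replicates of each, so that 6 libraries gave 1 comparison. No genetic change or drug is named for either medium, and the sources used here do not give the age of the cultures or the composition of the media. All replicates derive from 1 cell line, and the labels do not say whether the replicates were separate differentiations, so the p-values measure only the spread between these libraries.

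The respiratory chain moves electrons from NADH and succinate to oxygen and stores the energy as a proton gradient across the inner mitochondrial membrane, which ATP synthase then spends to make ATP. Complex II, the succinate dehydrogenase that also serves the citric acid cycle, is made wholly from nuclear genes. Complexes III, IV and V join nuclear subunits to a few subunits made inside the mitochondrion from its own genome. The heart depends on this chain for most of its ATP, and several complex IV subunits exist in a ubiquitous form and in a second form found in heart and skeletal muscle or in other tissues. COX6A2 and COX7A1 are the muscle forms of COX6A1 and COX7A2, and COX4I2 is an oxygen-sensitive form of COX4I1 known from lung and smooth muscle.

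Nuclear respiratory genes have no common regulatory protein of their own, but many promoters are known to hold sites for NRF1 or for ETS factors such as GABPA. Promoter sequence was present for 32 of the 42 members in the RefSeq table (GRCh38.p14, the same base assembly as the hg38 named in the submitters' processing notes), as the 250 bases before and 50 bases after a start site. A gene with more than 1 start site in the table was counted once. The NRF1 letters GCATGCGC, searched on both strands, stood in 9 of these 32 members (28.1%) and in 3.68% of the 27305 genes with a promoter. The ETS letters CCGGAAGT stood in 9 (28.1%, against 4.95% of all), the YY1 letters AAGATGGCG in 3 (9.38%, against 2.14%), and the cAMP response element TGACGTCA in 3 (9.38%, against 2.25%). The ERR letters TCAAGGTCA stood in 1 member, SDHD, and in 0.432% of all. An NRF1 match can overlap a second match on the other strand where the letters form a longer palindrome, and a match is a description of the letters, not of a bound site. The windows printed here belong to some of these 9 members, with the NRF1 letters or their reverse complement in capitals. They were picked for their place in the results and do not stand for all 9. SDHB, SDHD, ATP5F1C and ATP5PF also held the letters, and their windows are not printed. A link between the letters and the fold changes was not tested. Those of COX6A1 lie at chr12:120437884-120437913 and chr12:120437928-120437957 (plus strand), that of COX5B at chr2:97645915-97645944 (plus), that of ATP5ME at chr4:674336-674365 (minus), that of CYCS at chr7:25125411-25125440 (minus) and that of ATP5MC2 at chr12:53676105-53676134 (minus).
COX6A1, first match: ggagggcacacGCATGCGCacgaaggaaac
COX6A1, second match: ggaggtgcagaGCGCATGCtctctcttgcc
COX5B: ggcagagctggGCATGCGCaatttccgccc
ATP5ME: cgccgctgacgGCGCATGCgtgcgcccagc
CYCS: catgctcgccaGCATGCGCgcgcaggtcct
ATP5MC2: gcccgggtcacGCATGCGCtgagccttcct

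The muscle gene COX6A2 held none of the NRF1, ETS, ERR, YY1 or cAMP response element letters. Its window was the only one among the members with a match to MEF2, a muscle transcription factor (1 of 32 members, 3.12%, against 3.67% of all genes), and it also held the E-box letters CAGCTG, which 8 of 32 members and 21.1% of all genes shared. The MEF2 match of COX6A2 lies at chr16:31428439-31428470 and the E-box at chr16:31428483-31428510 (both minus strand), and they are shown in capitals.
COX6A2, MEF2: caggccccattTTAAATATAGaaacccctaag
COX6A2, E-box: gcacaggacaaCAGCTGtctggagatga

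Transcripts of nuclear subunits were slightly more abundant in DMEM plus fatty acids than in RPMI plus B27 for nearly every member, and no single gene passed the main test. Of the 42 members, 40 passed the filter on low counts, and 0 of these 40 passed the quasi-likelihood test of edgeR (p adjusted over all 16107 genes tested, threshold 0.05), which 1.36% of all genes passed. With the replicate number as a block 0 members passed as well, where 1.36% of all genes passed as higher in DMEM plus fatty acids. The DESeq2 Wald test called 2 members, COX6A1 and ATP5F1A, both higher, and it called 2.40% of all genes as higher. At an unadjusted p under 0.05, 13 members were higher and 0 lower, against 7.70% of all genes higher and 9.98% lower. The log2 fold change was above 0 for 38 of the 40 members and for 51.0% of all genes. It ran from -0.12 for COX6A2 to 0.62 for ATP5MC1, with a median of 0.29, beside 0.01 for all genes tested. Under scaling by total counts in place of TMM the medians were 0.40 for the members and 0.12 for all genes, so the distance between them was about the same.

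Reads of 32 of the 40 tested members could be shared with a pseudogene by name or a gene on the same strand in GENCODE 29, and over the 8 without one the median was 0.27, with 7 of 8 above 0. That split was made after the data were seen.

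The median log2 fold change was 0.26 for complex II, 0.28 for complex III, 0.29 for complex IV and 0.32 for complex V, and that of cytochrome c was 0.36. Leaving out RPMI plus B27 replicate 2 moved the median of complex III to 0.43. Single members ran from 0.02 to 0.53 in complex III, from -0.12 to 0.52 in complex IV and from -0.03 to 0.62 in complex V. In complex II they ran from 0.24 to 0.33. A range tends to widen with the number of genes, and complex II had 4 tested genes against 9, 11 and 15. Medians also vary less than single genes, so the width of these ranges cannot be read as a trait of a complex.

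**Figure D1:**
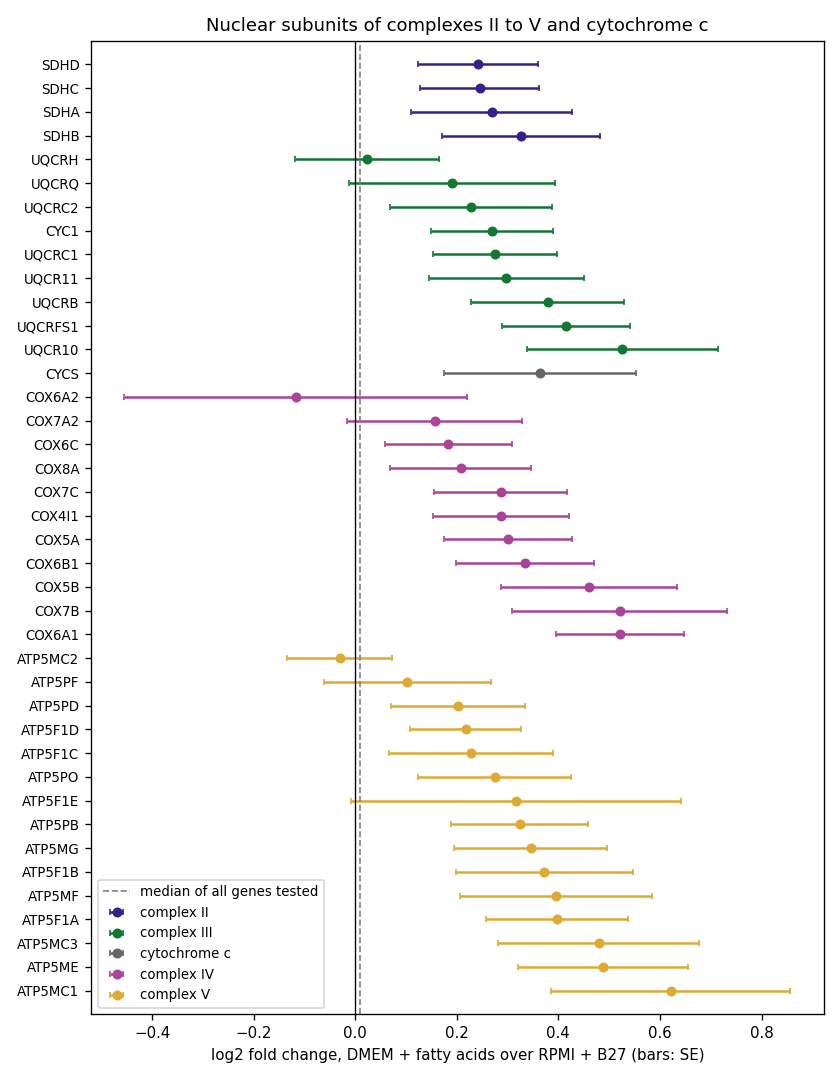
Log2 fold change of each of the 40 tested members, for DMEM plus fatty acids relative to RPMI plus B27 (points, with bars of 1 SE), grouped by complex, with the median of all genes as a dashed line. All but COX6A2 and ATP5MC2 lie above 0, and the values reach 0.62 for ATP5MC1.

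The libraries of the 2 media did not overlap for 18 of the 40 members, all 18 higher in DMEM plus fatty acids, against 12.8% of all genes higher and 12.8% lower. The order of the libraries within a medium was similar for most members. RPMI plus B27 replicate 2 was the highest of its medium for 31 of 40 members, and DMEM plus fatty acids replicate 3 was the lowest of its medium for 37. Without RPMI plus B27 replicate 2 the media were separate for 30 members (17.1% of all genes), and without DMEM plus fatty acids replicate 3 for 33 (18.1% of all genes). Without RPMI plus B27 replicate 1 or 3 they were separate for 19 and 20 members (19.0% and 19.5% of all genes). Without DMEM plus fatty acids replicate 1 or 2 they were separate for 18 members each (17.8% and 16.6% of all genes). Within pairs of libraries that carry the same replicate number, 36 of the 40 members were higher in DMEM plus fatty acids in all 3 pairs and 0 were lower in all 3, against 25.8% of all genes higher and 24.0% lower. The exceptions were UQCRH, COX8A, COX6A2 and ATP5MC2. The 42 members together took 0.814%, 0.985% and 0.836% of all gene counts in RPMI plus B27 replicates 1 to 3, and 1.19%, 1.26% and 1.10% in DMEM plus fatty acids. These shares rest on total counts, a scaling that put the median of all genes at 0.12 (log2). After TMM scaling the summed levels nearly met, at 8567, 10060 and 8694 CPM against 11880, 12280 and 10100 CPM, and the median deviation of the members from their mean over libraries overlapped between media, at 0.02 in RPMI plus B27 replicate 2 and 0.0089 in DMEM plus fatty acids replicate 3 (log2).

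**Figure D2:**
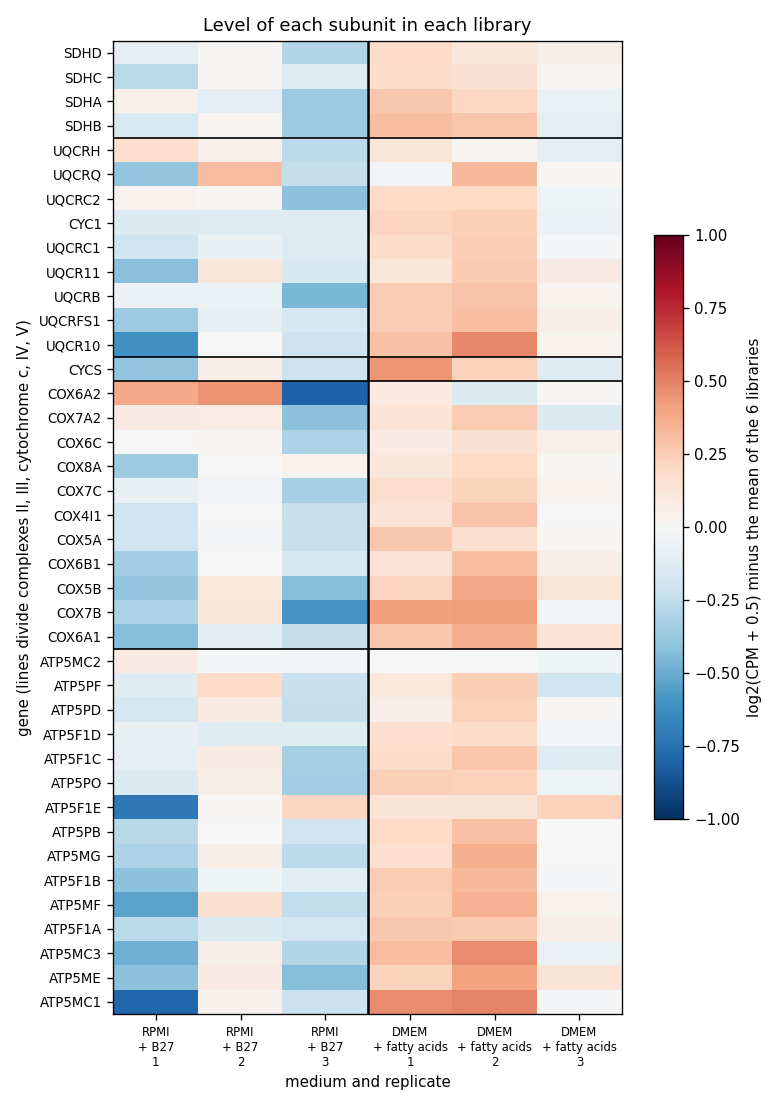
Level of each of the 40 tested members in each library, as log2(CPM + 0.5) minus the mean of the 6 libraries (colour), with replicates 1 to 3 of each medium in columns and genes in rows. The third DMEM plus fatty acids column is paler than the other two, and COX6A2 and ATP5MC2 depart from the shared pattern.

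Gene counts per library were 23232324 to 31035389. Markers of non-muscle cells also differed between these libraries. Fibroblast markers were lower in DMEM plus fatty acids for 8 of 8 genes. Of these, 4 fell (edgeR adjusted p under 0.05), against 172 of all 16107 genes. The summed level of the fibroblast markers was 4219 to 7947 CPM in RPMI plus B27 and 715 to 1910 CPM in DMEM plus fatty acids. Smooth muscle and pericyte markers were lower for 9 of 10 genes, 0 of them past the test, with sums of 1874 to 2343 and 609 to 1530 CPM, and epicardial markers for 4 of 4 tested genes, 0 past the test, with sums of 105 to 291 and 42.7 to 87.5 CPM. With the replicate number as a block, 6 fibroblast, 2 smooth muscle and 2 epicardial markers fell, against 3.42% of all genes. DESeq2 called 7 fibroblast, 2 smooth muscle and 2 epicardial markers as lower, against 5.13% of all genes. Of 6 endothelial markers, PECAM1, CDH5 and VWF were at most 0.414 CPM in every library. The sum of that list, 54.8 to 249 and 119 to 471 CPM, came mainly from KDR. KDR was higher in DMEM plus fatty acids and passed edgeR only with the block (adjusted p 0.0245, against 0.434 in its absence). The other 2 of the 3 tested endothelial markers were lower, with media that did not overlap, against 12.8% of all genes lower. DESeq2 called both as lower, against 5.13% of all genes, while edgeR called 0 as lower under either design. Of 4 skeletal muscle markers, MYOD1, PAX7 and MYF5 had 0 counts in all 6 libraries, and MYOG was at most 0.213 CPM. Cardiomyocyte markers summed to 26360 to 31420 CPM in RPMI plus B27 and 20330 to 29910 CPM in DMEM plus fatty acids. Over the 8 genes the median log2 fold change was -0.08, in a range of -1.27 to 0.86, and 0 passed edgeR without the block. With the block 2 were lower. DESeq2 called 1 as higher and 2 as lower, against 2.40% and 5.13% of all genes. In such bulk RNA, fewer cells of a type and less RNA per cell cannot be told apart, and the part of cell composition in the differences of the members was not tested.

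Complex II carries electrons from succinate to ubiquinone. SDHB, its iron-sulfur subunit, measured 83.2, 94.1 and 71.8 CPM (counts scaled to a common library size) in RPMI plus B27 replicates 1 to 3 and 114, 112 and 86.7 CPM in DMEM plus fatty acids. DMEM plus fatty acids replicate 3 fell within the range of the other medium, and the log2 fold change was 0.33 ± 0.16 (SE, edgeR adjusted p 0.326). SDHC, a membrane anchor, measured 70.8, 86.5 and 78.1 CPM against 97.0, 94.97 and 87.1 CPM. Its media just failed to overlap, with a log2 fold change of 0.24 ± 0.12 (adjusted p 0.328). The catalytic flavoprotein SDHA (0.27 ± 0.16) and the anchor SDHD (0.24 ± 0.12) had adjusted p values of 0.420 and 0.339. All 4 subunits were higher in each of the 3 pairs.

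Complex III passes electrons from ubiquinol to cytochrome c. UQCRFS1, the Rieske iron-sulfur subunit, had the smallest p of the complex and measured 134, 161 and 153 CPM in RPMI plus B27 and 205, 212 and 180.3 CPM in DMEM plus fatty acids. The media did not overlap, and the log2 fold change was 0.42 ± 0.13 (edgeR adjusted p 0.159). UQCR10, a small supernumerary subunit, measured 83.4, 128 and 110.3 CPM against 155, 177 and 130.0 CPM. Its lowest DMEM plus fatty acids library lay just above its highest RPMI plus B27 library, at a log2 fold change of 0.53 ± 0.19 (adjusted p 0.210). The heme-bearing subunit CYC1 was almost constant in RPMI plus B27 (148, 149.6 and 149 CPM) and measured 189, 193 and 157 CPM in DMEM plus fatty acids, a log2 fold change of 0.27 ± 0.12.

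The core proteins UQCRC1 and UQCRC2 had log2 fold changes of 0.28 and 0.23, and the small subunits UQCRB, UQCR11 and UQCRQ had 0.38, 0.30 and 0.19. Without 1 library at a time UQCRQ ran from 0.053 (without RPMI plus B27 replicate 1) to 0.43 (without replicate 2). UQCRH, the hinge protein that helps cytochrome c bind, was the exception. It measured 192, 177 and 143 CPM in RPMI plus B27 and 186, 173 and 160.2 CPM in DMEM plus fatty acids, with overlapping media and a log2 fold change of 0.02 ± 0.14. UQCRH and the ATP5MC genes of complex V were singled out after their values were seen. The sign for UQCRH turned to -0.09 without RPMI plus B27 replicate 3 and to -0.04 without DMEM plus fatty acids replicate 1. UQCRH has 4 pseudogenes by name in GENCODE 29 and a near-identical gene, UQCRHL, so that its reads could be split between copies.

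Cytochrome c, the mobile carrier between complexes III and IV that also takes part in apoptosis when released, is encoded by CYCS. It measured 249, 345 and 284 CPM in RPMI plus B27 and 446, 385 and 299.9 CPM in DMEM plus fatty acids. The 2 media overlapped through DMEM plus fatty acids replicate 3, and the log2 fold change was 0.36 ± 0.19 (edgeR adjusted p 0.367). CYCS has 40 pseudogenes by name in GENCODE 29, more than any other member, and reads that aligned to more than 1 place were set aside.

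Complex IV, cytochrome c oxidase, reduces oxygen to water. COX6A1, the ubiquitous form of a regulatory subunit, had the smallest p of all members and measured 75.9, 94.5 and 86.7 CPM in RPMI plus B27 and 124, 132 and 113 CPM in DMEM plus fatty acids. The media did not overlap, and the log2 fold change was 0.52 ± 0.13 (edgeR adjusted p 0.0972). With the replicate number as a block its adjusted p was 0.0538, and by DESeq2 it was 0.0216, in a range of 0.0216 to 0.289 over 12 alternatives. Its exons overlap a same-strand gene, AL021546.1, and it has 2 pseudogenes by name, so that some of its reads could have been set aside. COX5B, a zinc-binding subunit on the matrix side, measured 169, 240.2 and 166 CPM against 258, 290.4 and 243 CPM. RPMI plus B27 replicate 2 came close to DMEM plus fatty acids replicate 3, and the log2 fold change was 0.46 ± 0.17 (adjusted p 0.230).

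The other ubiquitous subunits of complex IV all had log2 fold changes above 0. COX7B had 0.52 ± 0.21, COX6B1 0.33 ± 0.14 and COX5A 0.30 ± 0.13, with edgeR adjusted p values of 0.261 to 0.271, and COX7C had 0.29, COX8A 0.21 and COX6C 0.18. COX8A was at 0.093 without RPMI plus B27 replicate 1, and COX6C at 0.086 without replicate 3. Of the 11 tested complex IV genes, 7 had media that did not overlap, beside 2 of 4 in complex II, 5 of 9 in complex III and 4 of 15 in complex V, and 12.8% of all genes.

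Of the second forms of the complex IV isoform pairs, COX7A1 and COX4I2 were scarce in both media and COX6A2 was a minor form. Levels between isoforms are compared as CPM per kilobase of the principal GENCODE 29 transcript. COX6A1 (chr12:120438113-120440730) was at 149.8 ± 16.3 CPM per kilobase in RPMI plus B27, against 215 ± 17.0 under DMEM plus fatty acids (SD, n = 3), and the muscle form COX6A2 (chr16:31427731-31428360) at 25.5 ± 10.9 and 23.5 ± 2.00. COX7A2 (chr6:75237675-75250298) was at 77.4 ± 14.3 and 86.2 ± 11.8, while the muscle form COX7A1 (chr19:36150922-36152447) was at 0.0329 ± 0.0570 and 0.121 ± 0.106. COX4I1 (chr16:85799695-85807068) was at 422 ± 36.4 and 515 ± 50.5, and COX4I2 (chr20:31637912-31645006) at 0.430 ± 0.358 and 0.0207 ± 0.0358. The ubiquitous form was thus above the second form in every library for all 3 pairs. The sizes depend on the length used: per kilobase of merged exons, RPMI plus B27 means were 76.9 for COX4I1, 63.8 for COX6A1, 20.7 for COX6A2 and 36.8 for COX7A2.

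COX6A2 measured 13.6, 14.3 and 5.70 CPM in RPMI plus B27 and 11.1, 9.39 and 10.5 CPM in DMEM plus fatty acids. RPMI plus B27 replicate 3 was lower than every other library, and the media overlapped, with a log2 fold change of -0.12 ± 0.34 (edgeR adjusted p 0.888). Its share of the COX6A1 and COX6A2 counts was 15.2%, 13.1% and 6.17% in RPMI plus B27 and 8.24%, 6.64% and 8.48% in DMEM plus fatty acids. The log2 ratio of COX6A2 to COX6A1 was lower in DMEM plus fatty acids by a mean of -0.53, a difference within the spread between replicates (exact two-sided permutation p 0.4, adjusted over the 3 isoform pairs 0.5, where 3 against 3 libraries cannot go below 0.1). It was -0.25, -0.37 and -0.97 without RPMI plus B27 replicate 1, 2 and 3.

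COX7A1 had 2, 0 and 0 counts in RPMI plus B27 and 3, 0 and 5 counts in DMEM plus fatty acids, against 78.5, 78.0 and 55.7 CPM and 81.2, 88.2 and 67.1 CPM for COX7A2. The muscle form was therefore barely detected in these cardiomyocytes, with at least 1 library at 0 in either medium. A count of 0 allowed up to 0.1003 to 0.1275 CPM in the libraries concerned. No change of isoform was detectable at this depth (difference of log2 ratios 0.99, set largely by the 0.5 added to counts of 0, exact permutation p 0.5, adjusted 0.5). COX7A2 itself had a log2 fold change of 0.16 ± 0.17.

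COX4I2 had 15, 6 and 2 counts in RPMI plus B27 and 1, 0 and 0 counts in DMEM plus fatty acids, which is 0.565, 0.255 and 0.0745 CPM against 0.0430, 0 and 0 CPM. The gene did not pass the filter of the test. RPMI plus B27 replicates 1 and 2 were above the DMEM plus fatty acids libraries, while the 2 counts of replicate 3 lay under the limit that a count of 0 allows, so the media were not clearly separate. The summed ratio of DMEM plus fatty acids to RPMI plus B27 was 0.0385, with a 95% exact interval of 0.000934 to 0.237 that covers counting error only. COX4I1 measured 354, 405 and 346 CPM against 446, 496 and 408 CPM, with no overlap and a log2 fold change of 0.29 ± 0.13 (edgeR adjusted p 0.317). The size of the difference in the log2 ratio of COX4I2 to COX4I1 depended on the number added to counts of 0, at -3.58 with 0.5 added and -2.91 with 1 added. Its exact permutation p was 0.1, the smallest that 3 against 3 libraries allow, and 0.3 adjusted over the 3 pairs. RPMI plus B27 replicate 1, where COX4I2 was highest, was also the library with the highest sums of fibroblast, smooth muscle and epicardial markers, and their part in the counts of COX4I2 was not tested.

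**Figure D3:**
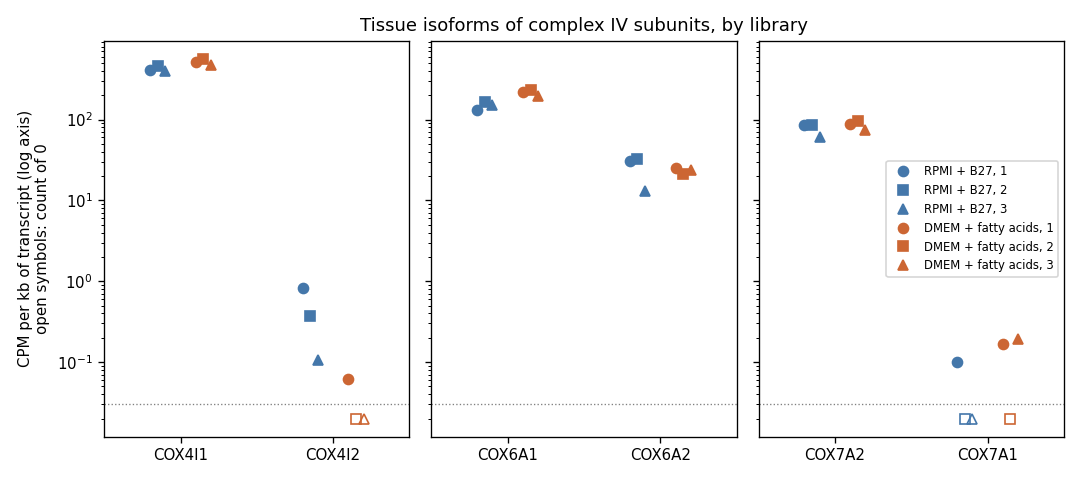
CPM per kilobase of transcript (log axis) of the ubiquitous and the second isoform in each pair, for each of the 6 libraries, with open symbols below the dotted line for a count of 0. COX7A1 and COX4I2 lie far below their partners in both media, and COX6A2 lies between.

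Complex V, ATP synthase, couples the return of protons to the making of ATP. ATP5F1A and ATP5F1B encode the alpha and beta subunits of its catalytic head, and ATP5F1B had the highest level per length of all members, 804 ± 103.9 CPM per kilobase in RPMI plus B27 against 1041 ± 127.6 under DMEM plus fatty acids (SD, n = 3). ATP5F1A measured 1042, 1139 and 1114 CPM in RPMI plus B27 and 1520.0, 1507 and 1316 CPM in DMEM plus fatty acids, with separate media and a log2 fold change of 0.40 ± 0.14 (edgeR adjusted p 0.203, and 0.0460 by DESeq2, in a range of 0.0460 to 0.449 over 12 alternatives). The log2 fold change of ATP5F1B was 0.37 ± 0.17, and those of the central stalk subunits ATP5F1C and ATP5F1D were 0.23 and 0.22. ATP5F1E, the epsilon subunit, had only 45 to 126 counts per library and a log2 fold change of 0.32 ± 0.32, which was 0.049 without RPMI plus B27 replicate 1 and 0.55 without replicate 3. RefSeq places the readthrough gene SLMO2-ATP5E over its locus, and that gene had 0 counts in all 6 libraries. Whether reads shared by both were set aside was not tested.

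ATP5ME, subunit e of the membrane part, had the smallest p of complex V. It measured 67.6, 94.97 and 66.7 CPM in RPMI plus B27 and 105, 118 and 98.4 CPM in DMEM plus fatty acids. The lowest DMEM plus fatty acids library lay just above RPMI plus B27 replicate 2, at a log2 fold change of 0.49 ± 0.17 (edgeR adjusted p 0.194). Its membrane neighbours ATP5MF and ATP5MG had 0.40 and 0.35, and the peripheral stalk subunits ATP5PB, ATP5PO, ATP5PD and ATP5PF had 0.32, 0.27, 0.20 and 0.10. ATP5PF was at 0.0043 without DMEM plus fatty acids replicate 2.

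The proton-carrying ring of ATP synthase is built from copies of subunit c, and ATP5MC1, ATP5MC2 and ATP5MC3 encode the same mature c protein with different import signals. ATP5MC1 had the largest log2 fold change of all members, 0.62 ± 0.24 (edgeR adjusted p 0.232). It measured 67.0, 119.7 and 100.5 CPM in RPMI plus B27 and 162, 165 and 116 CPM in DMEM plus fatty acids. DMEM plus fatty acids replicate 3 lay below RPMI plus B27 replicate 2, so the media overlapped. ATP5MC3 measured 311, 453 and 355 CPM against 541, 604 and 417 CPM, with the same overlap and 0.48 ± 0.20 (adjusted p 0.267).

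ATP5MC2 measured 229.6, 213 and 214 CPM against 216, 217 and 211 CPM, the narrowest range of the 3 genes, with a log2 fold change of -0.03 ± 0.10 (edgeR adjusted p 0.903) that was 0.08 when libraries were scaled by total counts. The ratio of ATP5MC1 to ATP5MC2 counts was 0.292, 0.561 and 0.469 in RPMI plus B27 and 0.750, 0.758 and 0.549 in DMEM plus fatty acids. DMEM plus fatty acids replicate 3 again fell within the range of RPMI plus B27, and this ratio is a description without a test because it was chosen after the values were seen. In the promoter table the NRF1 letters stood before ATP5MC2, in 2 places, and not in the ATP5MC1 window, which held the cAMP response element letters. SDHB and ATP5ME, with log2 fold changes of 0.33 and 0.49, held both sets of letters, and ATP5MC3 was listed with neither. Whether these letters bear on the levels of the genes was not tested. The match of ATP5MC1 lies at chr17:48892719-48892748 (plus strand), shown in capitals.
ATP5MC1, cAMP response element: tggggaatcgaTGACGTCAaccaatgggga

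**Figure D4:**
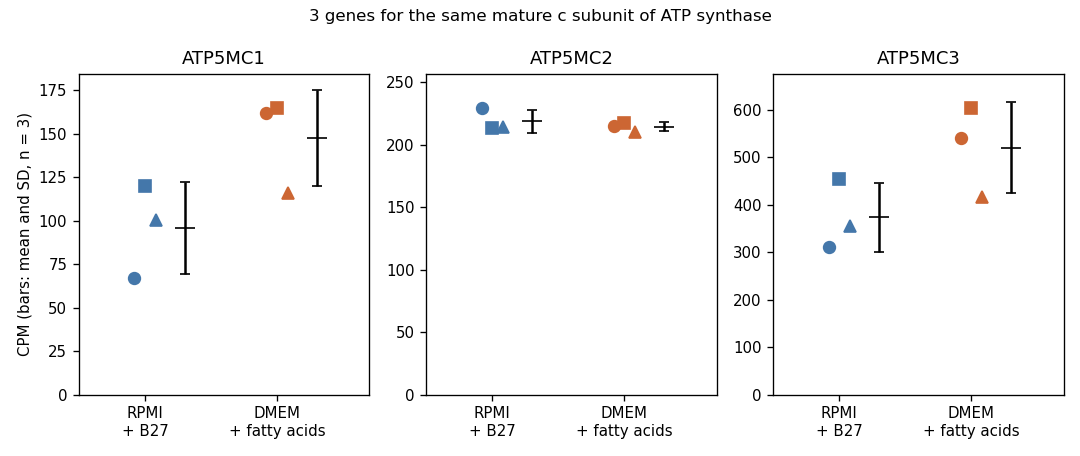
CPM of the 3 genes for subunit c in each library (points, replicates 1 to 3 by symbol) with the mean and SD of each medium (n = 3), on axes that start at 0. ATP5MC2 stays between 211 and 229.6 CPM, while ATP5MC1 and ATP5MC3 have higher means in DMEM plus fatty acids.

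The 6 subunits of complexes III to V that the mitochondrial genome encodes differed in the other direction. All 6 had log2 fold changes below 0, with a median of -0.45, and 0 passed the edgeR test. At an unadjusted p under 0.05, 3 were lower, against 9.98% of all genes. The media did not overlap for 4 of the 6, against 12.8% of all genes lower. DESeq2 called 2 of the 6 as lower, COX1 (adjusted p 0.00656) and COX3 (adjusted p 0.00170), and 5.13% of all genes. COX3 had the lowest, -0.64 ± 0.20 (edgeR adjusted p 0.162), followed by COX1 (-0.56 ± 0.22), ATP8 (-0.48 ± 0.17) and CYTB (-0.42 ± 0.20). Counts are not corrected for length here, so only the difference between media can be read from their ratio. In complex IV the mitochondrially encoded counts were 18.7, 16.3 and 20.1 times the nuclear ones in RPMI plus B27 and 11.2, 8.33 and 10.5 times in DMEM plus fatty acids. The same ratio was 2.29, 2.56 and 3.53 against 1.81, 1.53 and 1.77 in complex III, and 1.02, 0.950 and 1.09 against 0.753, 0.565 and 0.731 in complex V. In each of the 3 complexes the media did not overlap in this ratio, a description without a test. Taken alone, the mitochondrially encoded sums overlapped in complexes III and V, and not in complex IV. For replicate 1 they were 3611 CPM in RPMI plus B27 and 3628 CPM in DMEM plus fatty acids in complex III. In complex V they were 4369 and 4686 CPM. Nuclear sums of RPMI plus B27 replicate 2 and DMEM plus fatty acids replicate 3 were 1744 and 1747 CPM in complex III. In complex V those were 5195 and 5247 CPM.

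**Figure D5:**
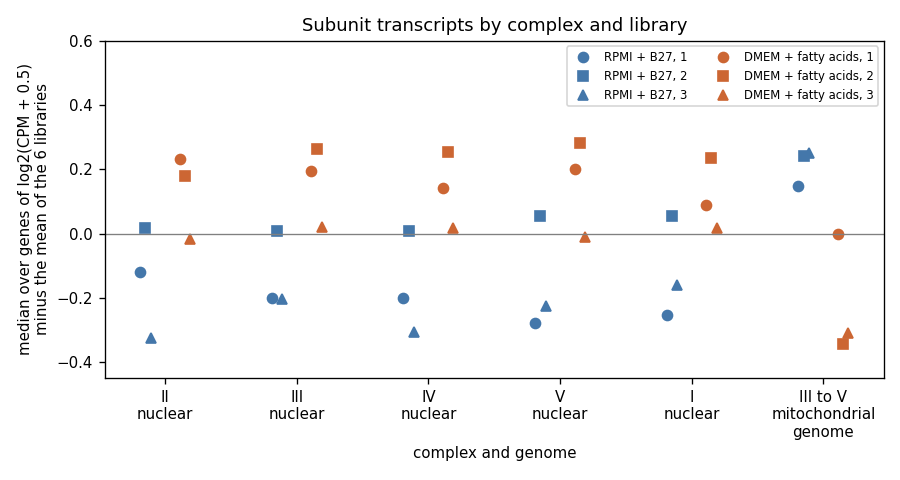
Median over the genes of each group of log2(CPM + 0.5) minus the mean of the 6 libraries, for each library (points), for nuclear subunits of complexes II to V and I and for the mitochondrially encoded subunits of complexes III to V. The mitochondrially encoded group is higher in RPMI plus B27, and the nuclear groups are mostly higher in DMEM plus fatty acids.

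Other genes of the pathway were read from lists written with earlier results known. Of 39 assembly factors for complexes II to V, 38 were tested and 0 passed edgeR, with or without the replicate block, or DESeq2. At an unadjusted p under 0.05, 5 were higher and 1 lower, against 7.70% and 9.98% of all genes. The median log2 fold change of the assembly factors was 0.14, with 30 of 38 above 0, against 51.0% of all genes. The smallest p values were those of LRPPRC, which stabilises mitochondrial messenger RNA (0.34 ± 0.11, edgeR adjusted p 0.188), COX15 and COX10, which make heme A for complex IV (0.32 ± 0.12 and 0.35 ± 0.14), and TACO1, a translational activator of COX1 (0.38 ± 0.15). SDHAF4, an assembly factor of complex II, had the lowest value, -0.61 ± 0.24 (adjusted p 0.253).

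Of 13 further or alternative subunits and inhibitors, 10 were tested and 0 passed edgeR or DESeq2, with a median of 0.08. At an unadjusted p under 0.05, 1 was higher, against 7.70% of all genes. HIGD2A, an assembly and supercomplex factor, had 0.45 ± 0.15 (edgeR adjusted p 0.176), NDUFA4, a subunit of complex IV despite its name, had 0.42 ± 0.20, and DMAC2L, also called factor B, had 0.38 ± 0.22. NDUFA4L2, a hypoxia-responsive relative of NDUFA4, had -1.62 ± 0.94 and measured 3.16 CPM in RPMI plus B27 replicate 1 and 0.267 to 0.774 CPM in the other 5 libraries, so that 1 library stood far above the rest, and without it the log2 fold change turned to 0.16. The inhibitor of ATP synthase, ATP5IF1, had -0.10 ± 0.15.

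The nuclear subunits of complex I had a median of 0.21, with 34 of 37 above 0 (51.0% of all genes). Of these 37, 0 were called by edgeR or DESeq2. At an unadjusted p under 0.05, 8 were higher and 1 lower, against 7.70% and 9.98% of all genes. The smallest p values were those of NDUFA9 (0.55 ± 0.15), NDUFS3 (0.47 ± 0.14), NDUFA10 (0.34 ± 0.11) and NDUFA6 (0.43 ± 0.14), with edgeR adjusted p values of 0.128 to 0.182. With the replicate block 1 passed, against 1.36% of all genes as higher. It was NDUFB9, at 0.55 ± 0.20 (edgeR adjusted p 0.210 without and 0.0408 with the block). Of 15 regulators of respiratory genes, 3 were higher at an unadjusted p under 0.05, against 7.70% of all genes. Without the block 0 of the 15 passed edgeR. With the block 1 passed (1.36% of all genes higher), which DESeq2 also called (2.40% of all genes higher). That gene was ESRRG, an estrogen-related receptor that drives oxidative genes in heart, which measured 75.8, 93.2 and 73.6 CPM in RPMI plus B27 and 138, 154 and 108 CPM in DMEM plus fatty acids. Its media did not overlap, and the log2 fold change was 0.72 ± 0.16 (edgeR adjusted p 0.0875 without and 0.0255 with the block). TFAM, which packages and transcribes mitochondrial DNA, had 0.44 ± 0.16, and GABPA, the DNA-binding part of an ETS factor, had 0.33 ± 0.13, with adjusted p values of 0.218 and 0.238. The coactivator gene PPARGC1B had 0.41 ± 0.21 (adjusted p 0.348).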

How the data were processed

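RNA was extracted on silica columns with DNase treatment and made into stranded mRNA libraries, per the labels' protocols. The authors deposited raw read counts per gene symbol, 1 file per library, not normalized or pooled. The submitters' processing notes name STAR, HTSeq and hg38, and the annotation and strand setting are not given in the sources used here. Gene rows held 84.4% to 87.2% of each library, and 5 summary rows were left out: reads in no gene were 5.44% to 7.57%, in more than 1 gene 3.90% to 4.15%, and aligned to more than 1 place 3.05% to 4.10%. Members with pseudogenes or overlapping genes can therefore be undercounted.

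Counts were tested with edgeR 4.0.16 (R 4.3.3) by the quasi-likelihood test over all 6 libraries, after filterByExpr (minimum count 10, minimum total 15, 16107 genes) and TMM scaling, with Benjamini-Hochberg adjustment over all genes and a threshold of 0.05. The script was tested on simulated data. CPM values are counts over TMM-scaled library sizes, and standard errors follow from the F statistic. Isoform ratios used raw counts plus 0.5 and exact permutation tests (scipy 1.17.1). Alternatives were DESeq2 1.42.0, other scalings and filters, the replicate block and leaving out each library. Transcript lengths and overlaps came from GENCODE 29, and gene positions and promoters from RefSeq.

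Deviations from the medium's mean correlated at 0.31, 0.43 and 0.37 between libraries with the same replicate number and at -0.24 to -0.14 between others. Deviations within a medium add up to 0, so positive values for the same number force the others below 0 on average. The negative values are therefore no separate evidence of pairing. Replicate numbers were used as pairs only in the block, the sign-flip test and the counts within pairs. The main edgeR test, with its log2 fold changes, standard errors and p-values, used no pairing. What a shared number stands for is not labelled. The members and lists were chosen with earlier results of these data known. Genes given in full are the isoform pairs, the 2 smallest p values per complex, cytochrome c and the extremes; UQCRH, CYC1, ATP5MC2 and ATP5MC3 were added after their values were seen. Genes of other lists are those with the 4 smallest p values, NDUFB9 as called with the block, and SDHAF4 and ATP5IF1, also added after their values were seen.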

Additional observations from a re-analysis of the deposited data

How the results depend on the processing

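Between 37 and 40 members had a log2 fold change above 0 under the 12 alternatives, and the median over all members was 0.25 to 0.40, including 0.27 over the 8 members with no named pseudogene or same-strand overlapping gene, a set chosen after seeing the data. The count of called members was 0 in every alternative except DESeq2, which gave 2. DESeq2 called 1212 genes in all, against 219 in edgeR, and the block 770; 539 passed without the filter, 119 with at least 10 counts in every library, and 3 to 131 without 1 library. With the replicate block the median was 0.29, 0 members were called, and no member's call changed; in the other lists it added the calls given in the report. With complete pairs the mean isoform difference within pairs equals that between media by construction, so only its p can differ. The exact sign-flip test within pairs gave p 0.25 for COX4I2, the smallest that 3 pairs allow, and 0.5 for COX6A2 and COX7A1.

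Without 1 library at a time the medians were 0.20 to 0.33 for complex II, 0.22 to 0.43 for complex III, 0.25 to 0.36 for complex IV, 0.26 to 0.41 for complex V and 0.22 to 0.51 for cytochrome c. The isoform differences were -4.26 to -2.93 for COX4I2 (-2.91 with 1 added to each count), -0.97 to -0.25 for COX6A2 and 0.31 to 2.15 for COX7A1. The sign turned for ATP5MC2 under total counts (0.078) and without RPMI plus B27 replicate 1 (0.0037, in a range of -0.050 to 0.0037 without 1 library), for COX6A2 without RPMI plus B27 replicate 1 (0.049) and 2 (0.095, in a range of -0.43 to 0.095), and for UQCRH without RPMI plus B27 replicate 3 (-0.088, in a range of -0.088 to 0.12) and DMEM plus fatty acids replicate 1 (-0.035); the cause was not tested. Without 1 library at a time, the log2 fold change moved by over 1.5 times for 17 of the 40 members and changed sign for these 3; the other ranges include 0.053 to 0.43 for UQCRQ, 0.18 to 0.44 for UQCR11, 0.012 to 0.26 for COX7A2, 0.0043 to 0.23 for ATP5PF and 0.25 to 0.60 for ATP5MF. Low counts limited COX4I2, COX7A1 and ATP5F1E, and 3 libraries per medium limited the tests of all members.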
